A study of Mus musculus with 12 samples.

Results

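The genes described here are the 83 listed genes whose symbols begin with Nduf, Uqcr, Cox4 to Cox8 or Atp5, or are Sdha, Sdhb, Sdhc or Sdhd, of 14177 genes listed in all. Sorted by their known place, 35 belong to complex I (NADH dehydrogenase), 4 to complex II (succinate dehydrogenase), 8 to complex III (cytochrome bc1 complex), 12 to complex IV (cytochrome c oxidase, with Ndufa4 placed here) and 14 to complex V (ATP synthase). The other 10 are assembly factors or other proteins that share the symbols, such as the Ndufaf genes. All 83 were listed and tested for the libraries labelled Cre-, and 74 for the libraries labelled Cre+.

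Complexes I to IV pass electrons from NADH and succinate to oxygen and, except for complex II, pump protons across the inner mitochondrial membrane, and complex V makes ATP from the proton gradient. Nearly all subunits are encoded in the nucleus, translated on cytosolic ribosomes and imported, while a few hydrophobic core subunits are made inside the organelle from mitochondrial DNA, on ribosomes of their own. Neurons of the dorsal root ganglion (DRG) carry long axons and depend on this pathway for ion pumping and transport. The transcripts measured here are those of nuclear genes.

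The cultures came from RiboTag mice, in which Cre recombinase switches on an HA tag on the ribosomal protein Rpl22, so that an HA pull-down takes ribosomes and the RNA on them. All mice were homozygous for the allele (Rpl22HA/HA), controls included. Runx3-Cre+ mice carried Cre expressed from Runx3, a transcription factor gene of proprioceptive neurons, and Runx3-Cre- littermates carried no Cre. Each sample pooled DRG neurons from 5 male mice of 3 to 6 months by the labels, purified on Percoll and cultured for 24 h in F12 medium with serum. There were 3 pull-downs and 3 inputs, taken from 10% of the lysate, under each label, and total counts over the listed genes of a library ranged from 8886308 to 18633365.

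Before the members are described, 3 facts bear on all libraries. Runx3 itself was 3.52 log2 units higher in pull-down than in input in the libraries labelled Cre- (FDR = 0.000236) and 1.55 higher in those labelled Cre+ (FDR = 0.309), and all 6 proprioceptor markers, Runx3 among them, were called higher in the Cre- pull-downs against 1 of the 5 listed, Ntrk3, in the Cre+ pull-downs. The groups are therefore named here only as the labels name them ("under Cre+" and "under Cre-" for short). From the counts alone, exchanged labels or tables cannot be told apart from pull-downs that hold other RNA than the labels imply, and an exchange would turn the sign of every difference between Cre+ and Cre- given here. The study reports significant overlap with Runx3-Cre+ ganglion tissue for its Cre+ cultures and poorer consistency for its Cre- cultures. It also found ribosomal RNA undetectable in ganglion pull-downs without Cre. Both run the way the labels say and were not used here. The summed level of 10 neuron markers was 48279 to 56142 normalized counts in the Cre- pull-downs against 23922 to 28872 in their inputs, and 22320 to 24147 in the Cre+ pull-downs against 20750 to 27614 in theirs. None of 4 striated muscle markers was listed. One input labelled Cre+ (replicate 1) stood apart, with short genes of all kinds higher in it than in the other inputs, so the members' counts and medians under Cre+ are also given without it.

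Promoter sequence was not used in the choice by symbol, and some members hold letters known as motifs of regulators. Reference windows of 300 bases at a start site (RefSeq, GRCm38.p6) were found for 71 of the 83 members and were searched on both strands for the palindromic Nrf1 motif (a regulator of respiratory genes; its letters are the capitals in the Uqcrc1 line), for CCGGAAG (ETS factors such as the GA-binding protein) and for AAGATGGC (YY1). The Nrf1 letters occurred in 8.45% of members against 1.07% of all 27025 genes with a window, the ETS letters in 23.9% against 9.93%, and the YY1 letters in 15.5% against 3.19%. At least 1 of the 3 was in 31 of the 71 members (43.7%) and in 13.4% of all genes, so most members hold none of them. The 27025 genes include many that were not listed in these data, and the members were not compared with listed genes alone. The ETS and YY1 letters can share AAG, but no match of one motif overlapped a match of another in a member's window. A match describes the window and is not a site of binding, and of the 10 members that passed as lower in the Cre+ pull-downs the Nrf1 letters were in 0, the ETS letters in 2 and the YY1 letters in 1. These lines show matches in members named in the results, 5′ to 3′ on the gene's strand with the matched letters in capitals.
Uqcrc1 (chr9:108936669-108936696, plus strand): ctccgctctGCGCATGCGCagcgcggct
Cox6a1 (chr5:115349102-115349129, minus strand): aggaacgggGCGCATGCGCgctctcgct
Sdhd (chr9:50603878-50603905, minus strand): cgtctcctgcCTTCCGGttcacgcttca
Ndufa9 (chr6:126849098-126849125, minus strand): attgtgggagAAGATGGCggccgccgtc

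The Ndufa9 capitals hold the ATG of the annotated start codon, and the same was true for 9 of the 10 forward matches to the YY1 letters in member windows, so that these matches also read as translation starts. Uqcrc1 encodes a core protein of complex III, Cox6a1 a subunit of complex IV, Sdhd a membrane anchor of complex II and Ndufa9 an accessory subunit of complex I that holds NADPH.

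As a share of all counts, the members made up less of the Cre+ pull-downs than of any other group. In the 3 Cre+ pull-downs they took 0.245%, 0.216% and 0.221% of the counts, and in the Cre+ inputs 1.13%, 0.560% and 0.578%. The Cre- pull-downs held 0.624%, 0.590% and 0.623%, and the Cre- inputs 0.720%, 0.568% and 0.567%. The Cre+ shares cover 74 members and the Cre- shares 83, of which the 9 outside the Cre+ table held 0.859% to 1.14% of the members' counts. The 3 Cre+ pull-downs were all below the other 9 libraries, while both Cre- groups overlapped. Exact binomial 95% intervals extended at most 0.00658 percentage points from these shares; they cover counting error only. The mean share was 3.33 times higher in input than in pull-down for the libraries labelled Cre+, 2.50 times without input replicate 1, and 1.01 times for those labelled Cre-. In bulk samples, fewer cells of a type and less RNA per cell cannot be told apart.

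**Figure D1:**
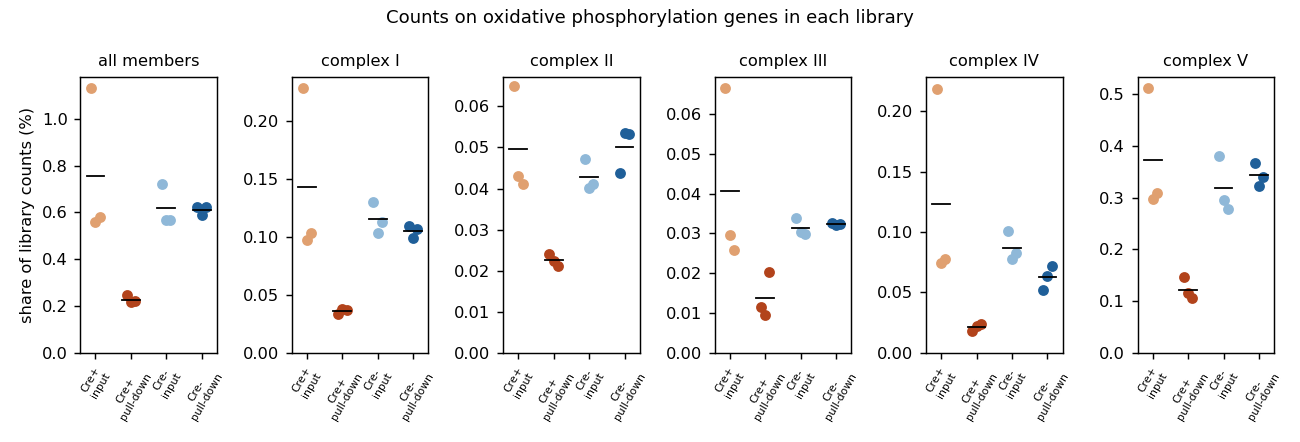
Share of library counts (%, linear axis from 0) on all members and on those of complexes I to V; each point is 1 library, the line is the mean of 3, and panels differ in scale. The Cre+ pull-downs lie lowest in every panel, and Cre+ input replicate 1 lies highest, at 1.13% for all members.

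Among the complexes, V took the largest part of the members' counts in every library, with 0.322% to 0.367% of the library in the Cre- pull-downs and 0.106% to 0.146% in the Cre+ pull-downs. Shares depend on what else a library holds. Map1b, a microtubule-associated protein of axons, took 6.63% to 13.3% of the counts in the Cre+ pull-downs and 1.44% to 2.37% in their inputs. The ribosomal RNA gene Rn45s took 2.80% to 3.35% and 5.96% to 8.53%. In the Cre- pull-downs and inputs, Map1b took 3.78% to 7.73% and 1.81% to 2.28%, and Rn45s 3.79% to 4.38% and 5.70% to 6.59%. The part of both genes in the members' shares was not tested. Per length, by the authors' mean FPKM over the libraries of a table, Atp5b (the catalytic beta subunit) was the highest member in both, with 866 under Cre+ and 1077 under Cre-. Ndufa4, Atp5a1, Cox6a1 and Cox8a came next in both tables, at 194 to 284. These means pool pull-downs and inputs, so the order need not hold in the pull-downs. Under Cre+, mean normalized counts were 31.7 in pull-downs and 183 in inputs for Ndufa4, and 420 and 530 for Atp5a1. Median FPKM under Cre- was 96.4 for complex IV, 63.0 for complex V, 50.3 for complex II, 39.9 for complex III, 29.1 for complex I and 9.55 for assembly factors.

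Pull-down against input in the libraries labelled Cre+ asked which transcripts were more or less abundant in the HA pull-down than in the whole culture. The members as a list were low in the pull-down: 10 of 74 were lower at FDR below 0.1 and at least 2-fold (edgeR quasi-likelihood test, all genes tested), where 2.19% of all genes were lower, and 0 were higher, where 4.72% were. The members that fell were Ndufa9 and Ndufb11 of complex I, Sdhd of complex II, Cox5b, Cox7b, Cox8a and Ndufa4 of complex IV, and Atp5b, Atp5c1 and Atp5d of complex V. The log2 fold change was below 0 for 72 of the 74 (47% of all genes), with TMM or upper-quartile scaling and with DESeq2, and for 74 by library size alone. The members' median was -1.69, or 3.22-fold lower, against 0.076 over all genes; 27 members were at least 4-fold and a further 32 at least 2-fold lower by this estimate. In 48 of the 74, all 3 pull-downs lay below all 3 inputs (17.9% of all genes), and in 0 above (15.5%). An unadjusted p under 0.05 was found for 43 members, all of them lower, and for 2109 of the 8947 genes tested, in either direction.

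These counts depend on the input that stood apart. Without Cre+ input replicate 1, no member and no gene of all 8947 was called lower. An unadjusted p under 0.05 was found for 10 of 74 members and for 1146 of the 8947 genes (edgeR). The members' median was then -1.13 against 0.090 for all genes, and 66 of 74 were below 0. The 10 named members then had log2 fold changes of -2.10 (Cox7b) to -0.97 (Atp5b). In 48 members the pull-downs were still below both other inputs, against 20.9% of all genes. Without input replicate 3 the count of members called lower was also 0 (0% of all genes), and without input replicate 2 it was 2 (0.168%). Without pull-down replicate 3 it was 4 (1.3%), and without pull-down replicate 1 it was 26 (6.04%). A block by the column numbers, which the labels tie to no single Cre+ sample, called 5 (0.548%), 4 of them among the 10. DESeq2 called 39 members lower (6.7% of all genes with an adjusted p), edgeR's exact test 35 (5.42%) and the fit of all 12 libraries 51 (10.6%), in each case with the 10 among them. In the Cre+ libraries, 6 listed glial markers summed to 545 to 621 normalized counts in the pull-downs and 804 to 879 in the inputs (of a list of 8), 5 proprioceptor markers to 351 to 527 and 178 to 244 (Pvalb not listed). Of the 6 glial markers 5 were below 0 and 1 above, with 0 called. Of the 5 proprioceptor markers 4 were above 0, with 1 called higher, and Spp1 was below (log2 fold change -0.95). Of the 10 neuron markers, 5 were above 0 and 5 below, with log2 fold changes of -1.85 to 0.56, and 2 were called lower (Uchl1 and Tubb3) and 0 higher; the part of these lists in the members' values was not tested. The 3 endothelial markers summed to 96.6 to 381 in the pull-downs and 46.5 to 82.0 in the inputs, with log2 fold changes of 0.96 to 2.48 and 0 called, and their part was not tested either. The 4 fibroblast and 2 macrophage markers tested overlapped between groups in their sums, with 0 called.

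**Figure D2:**
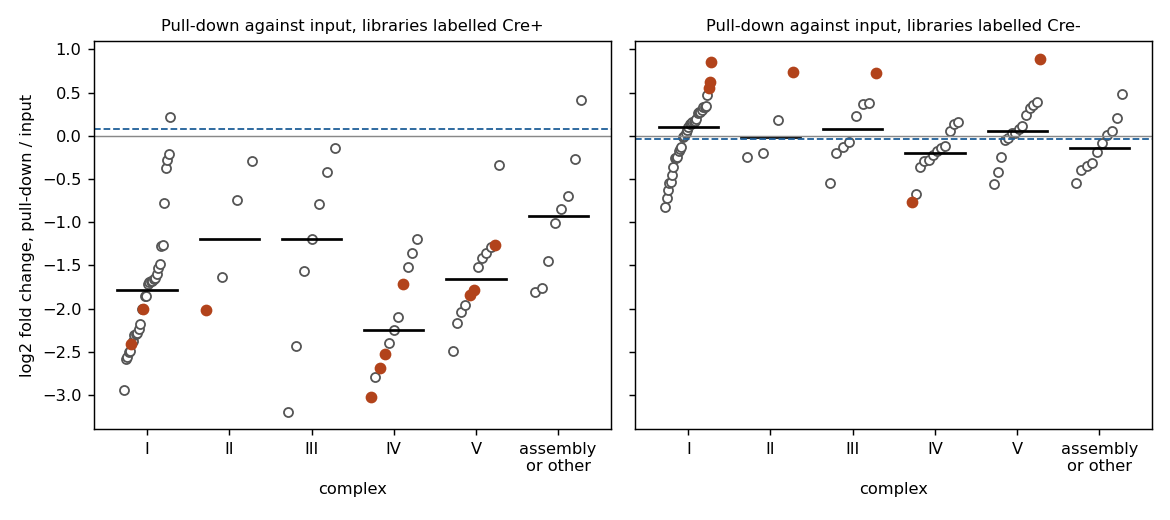
Log2 ratio of pull-down over input for each member by complex, in the libraries labelled Cre+ (74 members) and Cre- (83); filled points have FDR below 0.1, black lines are medians and the dashed line is the median of all genes tested. Complex IV has the lowest median under Cre+ (-2.25), and under Cre- all points lie between -0.82 and 0.89.

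Complex IV, the terminal oxidase, was the lowest of the 5 complexes in the Cre+ pull-down, with a median of -2.25 over its 11 tested members and of -1.42 without input replicate 1, where all 11 were still below 0. Each of the 11 had all pull-downs below all inputs, and 4 passed the test with all libraries, 0 without that input. Ndufa4, once counted to complex I and now known as a subunit of complex IV, had 31.4, 40.7 and 23.0 normalized counts (per 1000000 counts after TMM scaling) in the pull-downs and 331, 102 and 115 in the inputs. Its log2 fold change was -2.53 ± 0.52 (SE, FDR = 0.0462) and its first input was far above the other two. Cox7b, a small membrane subunit, had 7.77, 22.2 and 27.4 in the pull-downs and 304, 81.6 and 82.2 in the inputs, a log2 fold change of -3.03 ± 0.68 (SE, FDR = 0.0565). Cox5b, which binds zinc on the matrix side, fell from 27.0 ± 16.2 (SD, n = 3) to 4.18 ± 2.62, with 7.11, 2.07 and 3.35 in the single pull-downs and 45.5, 15.4 and 20.2 in the inputs (FDR = 0.0946). Cox8a, a further small membrane subunit, had 34.1, 42.1 and 46.2 against 239.7, 83.2 and 78.3, a log2 fold change of -1.71 ± 0.50 (SE, FDR = 0.0975). In all 4 every pull-down was below every input, and input replicate 1 was the highest. The other 7, which include Cox4i1, Cox5a and Cox6b1, had log2 fold changes of -2.79 to -1.19 and did not pass.

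Complex V had a median of -1.65 over 12 tested members (-1.07 without input replicate 1), and 3 of them fell, all parts of the F1 head and stalk where ATP is made. Atp5b, the most abundant member, had 984, 719.6 and 693 normalized counts in the pull-downs and 2624, 1549.6 and 1585 in the inputs, a log2 fold change of -1.26 ± 0.29 (SE, FDR = 0.0580). Atp5d, the delta subunit of the central stalk, had 63.7, 51.0 and 42.3 against 238, 151 and 150.0, a log2 fold change of -1.78 ± 0.35 (SE, FDR = 0.0433), the smallest FDR of all members. Atp5c1, the gamma subunit that turns within the head, had 56.4, 36 and 41.9 against 278, 89.3 and 112 (log2 fold change -1.84 ± 0.48 SE, FDR = 0.0786). None of the 3 overlapped between pull-down and input. The alpha subunit gene Atp5a1, with which Atp5b forms the catalytic ring, had 678, 301 and 281 against 610.0, 464 and 516, with groups that overlapped and a log2 fold change of -0.34 ± 0.36 (SE, FDR = 0.594). The 4 peripheral stalk genes Atp5f1, Atp5h, Atp5j and Atp5o, which hold the head still, ranged from -2.49 to -1.36 and the 4 membrane genes Atp5g1, Atp5g3, Atp5j2 and Atp5k from -2.16 to -1.29; none passed.

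In complex I, the entry point for NADH, the median was -1.78 over 32 members (-1.23 without input replicate 1), 31 were below 0 and 22 had pull-downs below all inputs. The 2 that passed were accessory subunits. Ndufa9 (377 residues, chr6:126821863-126849144 on GRCm38.p6) had 24.6, 18.5 and 12.7 normalized counts in the pull-downs and 96.1, 59.3 and 68.6 in the inputs, a log2 fold change of -2.0 ± 0.48 (SE, FDR = 0.0641). Ndufb11 had 2.33, 4.76 and 4.16 against 27.7, 16.6 and 15.6, a log2 fold change of -2.41 ± 0.67 (SE, FDR = 0.0885). Both were lower in each pull-down than in each input, and Ndufb11 has 1 near-identical pseudogene copy and overlaps the antisense gene Rbm10 in part. The 6 core subunits tested, which carry the flavin, the iron-sulfur clusters and the quinone site, lay between -2.01 (Ndufs8) and -0.78 (Ndufs1), all with pull-downs below inputs, and none passed. Ndufb9, the member of complex I with the highest FPKM in this table, had 45.7, 35.8 and 10.4 against 182, 59.1 and 60.7, which did not pass (FDR = 0.159). Ndufc2 was the one complex I member above 0 (log2 fold change 0.21 ± 0.82 SE, FDR = 0.903), with 15.1, 5.36 and 57.6 in the pull-downs and 31.7, 19.2 and 16.5 in the inputs.

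Complexes II and III had medians closer to 0, -1.19 over 4 and -1.20 over 7 members, which were -0.76 and -0.42 without input replicate 1. Sdhd, a membrane anchor of complex II, had 18.9, 31.8 and 13.2 normalized counts in the pull-downs against 134, 64.5 and 58.9, a log2 fold change of -2.01 ± 0.53 (SE, FDR = 0.0805). Sdha, the flavoprotein that oxidizes succinate, had 262, 148 and 165 against 275, 216 and 213, which overlapped (log2 fold change -0.29 ± 0.31 SE, FDR = 0.593). Sdhb, the iron-sulfur subunit, had 8.33, 29.6 and 7.27 against 82.6, 32.9 and 25.4 and overlapped too (FDR = 0.219). In complex III no member passed. Uqcrh, the hinge protein, had the lowest log2 fold change of all members, -3.19 ± 1.0 (SE, FDR = 0.108), from 0.888, 7.19 and 22.5 in the pull-downs and 178, 48.0 and 54.1 in the inputs. Its pull-downs differed widely but stayed below each input. Uqcrb had 5.22, 2.32 and 1.39 against 31.2, 9.23 and 8.08 (FDR = 0.132) and has 3 near-identical pseudogene copies. The 3 core genes Uqcrc1, Uqcrc2 and Uqcrfs1 lay at -0.42, -0.79 and -0.15, and each overlapped between groups.

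The 8 assembly factors and other members tested had a median of -0.93 (-0.79 without input replicate 1), and none passed. Ndufaf3, a complex I assembly factor, had 3.66, 6.95 and 2.54 normalized counts in the pull-downs and 29.1, 8.97 and 8.21 in the inputs (FDR = 0.200). Cox7a2l, which joins complexes III and IV, had 49.6, 39.9 and 62.9 against 170.1, 60.5 and 76.3 (FDR = 0.230). Atp5s was above 0 at 0.41 ± 1.01 (SE, FDR = 0.842), with pull-downs of 49.5, 18.2 and 1.04 that spanned both sides of the inputs at 20.8, 11.7 and 19.3.

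The libraries labelled Cre+ scattered more among pull-downs than any other group, over all genes as over the members. The highest of 3 libraries was a median of 3.49 times the lowest in the Cre+ pull-downs, 2.78 times in the Cre+ inputs, 1.37 times in the Cre- pull-downs and 1.42 times in the Cre- inputs. Over all genes tested with a value above 0 in each library of the group, these medians were 2.97, 1.54, 1.55 and 1.46. In 31 of 74 members the Cre+ pull-downs spanned more than 4-fold (37.2% of all genes), and 35 had their lowest value in pull-down replicate 1 (39.5% of all genes). In the Cre+ inputs, replicate 1 was the highest for 73 of 74. Across members, log levels correlated with r of 0.568 to 0.704 between Cre+ pull-downs and 0.974 to 0.985 between Cre- pull-downs (74 and 83 genes of the same libraries, given as a description). Across all genes tested, r was 0.695 to 0.839 and 0.937 to 0.968.

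In the libraries labelled Cre-, the members lay around 0. None of 83 was called higher or lower at FDR below 0.1 and 2-fold, where 6.01% of all genes were higher and 5.83% lower. DESeq2 and edgeR's exact test also called 0 members (6.24% to 6.94% of all genes in each direction). An unadjusted p under 0.05 was found for 12 of 83 members and for 3576 of the 11526 genes tested (edgeR). The median was 0.013 against -0.038 over all genes, and all 83 were within 2-fold. With TMM scaling 42 members were above 0 and 41 below (52.5% of all genes were below), whereas library size alone, which lowered the median of all genes to -0.27, put 62 below. Every pull-down was above every input for 11 members (18.2% of all genes) and below for 10 (18.6%). With no limit on the fold, 6 members were higher (13% of all genes) and 1 lower (11.1%).

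Those 6 were Atp5a1, Sdha, Uqcrfs1, Ndufs1, Ndufv1 and Ndufa9, of which 5 are core or catalytic subunits. Atp5a1 had 900.3, 939 and 750.1 normalized counts in the Cre- pull-downs and 474, 481 and 443 in the inputs, groups far apart, with a log2 fold change of 0.89 ± 0.14 (SE, FDR = 0.00147). Sdha had 293, 459 and 428 against 267, 218 and 220.1, a log2 fold change of 0.74 ± 0.19 (SE, FDR = 0.0163). Uqcrfs1, the Rieske iron-sulfur protein that passes electrons to cytochrome c1, had 62.9, 71.2 and 72.3 against 47.7, 40.3 and 36.4 (log2 fold change 0.73 ± 0.20 SE, FDR = 0.0235). In each of the 3 the lowest pull-down exceeded the highest input. Ndufs1, the largest core subunit of complex I, had 107, 60.2 and 85.6 against 38.7, 42.3 and 58.8 (FDR = 0.0318), Ndufv1, which holds the flavin that accepts electrons from NADH, had 45.9, 56.0 and 57.8 against 26.5, 35.9 and 41.3 (FDR = 0.0826), and Ndufa9 had 106, 84.5 and 99.5 against 53.3, 68.2 and 76.7 (FDR = 0.0717). Leaving out single libraries took the FDR of Ndufs1 up to 0.114, of Uqcrfs1 to 0.106 and of Ndufa9 to 0.197, while Atp5a1 stayed at 0.0135 or less and Sdha at 0.0909 or less.

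The one lower member was Cox8a, with 67.8, 76.2 and 72.3 in the pull-downs and 167, 112 and 90.1 in the inputs and a log2 fold change of -0.77 ± 0.22 (SE, FDR = 0.0320); its FDR rose to at most 0.127 without a library. Of the 17 core or catalytic subunits of complexes I, II, III and V, 15 were above 0 and their median was 0.35. All 7 core subunits of complex I and all 3 of complex III were above 0, with medians of 0.33 and 0.38, against -0.011 for 28 accessory subunits of complex I and -0.13 for 5 of complex III. The complex IV members, all of them accessory since the core is made from mitochondrial DNA, had a median of -0.20, with 9 of 12 below 0. Complexes I, II, III and V had medians of 0.10, -0.0086, 0.078 and 0.054, and the 10 assembly factors -0.14. These are medians of values that mostly did not pass the test. The sum of the neuron markers was higher in each Cre- pull-down than in each input, with 3 of the 10 called higher, 0 lower and 3 below 0, the 6 proprioceptor markers summed to 1234 to 1546 against 209 to 293, and 8 glial markers to 865 to 1192 against 799 to 919. The glial sum overlapped, and 6 of the 8 were below 0, with 2 called lower (Apoe at -1.58 and Fabp7 at -3.09) and 0 higher. Of the 5 fibroblast markers tested 1 was called lower, and of the 3 macrophage and 3 endothelial markers 0 were called; the part of all these lists in the members' values was not tested.

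No other member passed under Cre-, with or without the limit on the fold. Atp5b had 2292, 2018 and 2292 in the pull-downs and 2314, 1677 and 1576 in the inputs (log2 fold change 0.25 ± 0.16 SE, FDR = 0.334). Ndufa10, the complex I member with the highest FPKM there, had 172, 155 and 165 against 172, 111 and 123 (FDR = 0.340), and Uqcrh had 59.8, 71.7 and 59.6 against 62.9, 49.2 and 50.9 (FDR = 0.460). Ndufa4 had 55.3, 124 and 131 against 162, 112 and 124 (FDR = 0.446). In each of the 4 the groups overlapped. Atp5c1, next after Atp5a1 in complex V by FDR, had 176, 163 and 147 against 155, 119 and 107 (FDR = 0.204). Uqcr10, Cox7c and Sdhb had log2 fold changes of -0.55, -0.68 and -0.24 with every pull-down below every input, and none passed (FDR = 0.165, 0.340 and 0.476). Ndufaf5, an assembly factor of complex I, was at 0.48 and Cox7a2l at -0.34, which did not pass either (FDR = 0.229 and 0.225).

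The difference between both enrichments, Cre+ minus Cre-, was tested in 1 fit of all 12 libraries over 9006 genes. That fit shares its estimate of a gene's spread between all groups. The members' highest value was a median of 3.49 times the lowest in the Cre+ pull-downs and 1.37 times in the Cre- pull-downs. Errors may thus be too small for the Cre+ libraries. The Cre+ enrichment had 10 members called lower in its own fit (2.19% of all genes) and 51 in this one (10.6%). The difference was negative for 73 of 74 members (45.3% of all genes), with a median of -1.67 against 0.13 over all genes. It passed for 12 members, all lower under Cre+, where 2% of all genes were called lower, and for 0 in the other direction, where 2.3% were (edgeR; 0 also with DESeq2, which called 30 lower, with 4.91% of all genes). Of these 12, 9 were among the 10 members lower in the Cre+ pull-down; Ndufa10 and Ndufv1 were among those that came in addition, and Cox8a, which was low in both pull-downs, dropped out (difference -0.91 ± 0.56 SE, FDR = 0.387). By complex they included Ndufa9, Ndufa10, Ndufb11 and Ndufv1 (I), Sdhd (II), Cox5b, Cox7b and Ndufa4 (IV) and Atp5b, Atp5c1 and Atp5d (V). Leaving out Cre+ input replicate 1, 2 or 3 left 3, 6 and 5 of the 12 (0.755%, 0.944% and 0.766% of all genes were called lower). Leaving out any single Cre- library left 1 to 9 (0.333% to 1.7%), and leaving out a Cre+ pull-down called 27 to 33 members (5% to 7.74%). A block by the column numbers, which the labels tie to no single Cre+ sample, left 4 of the 12 (0.7%). The median was -1.13 without the input that stood apart.

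**Figure D3:**
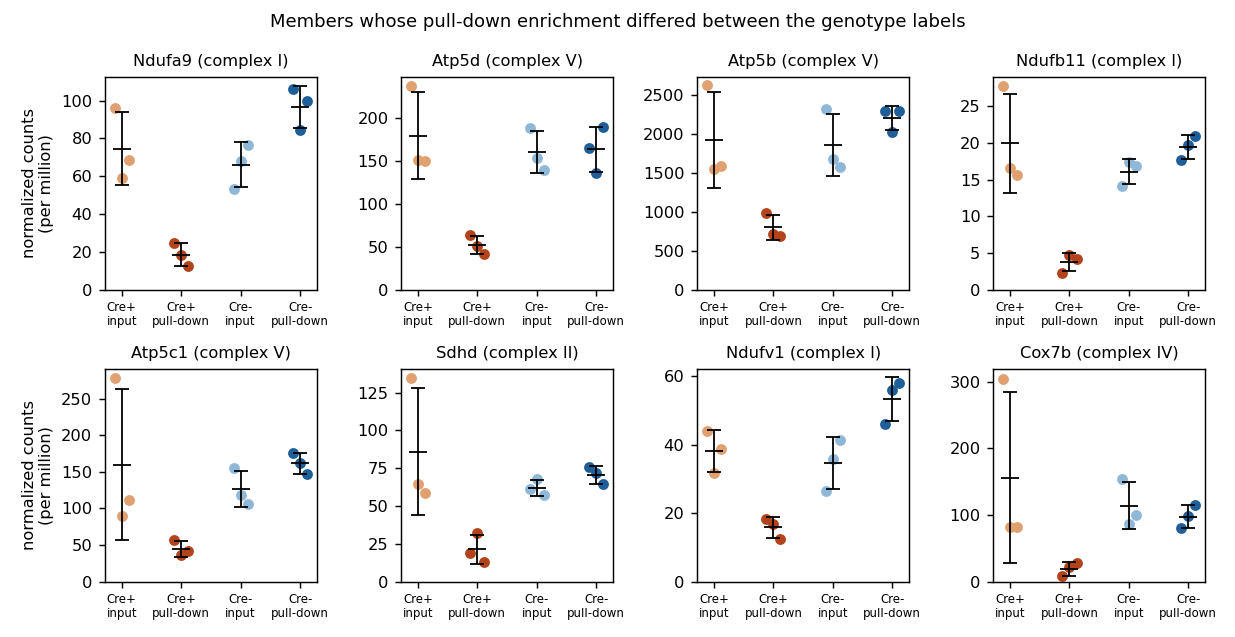
Normalized counts (per 1000000, linear axes from 0, normalized separately for each label) of the 8 members with the smallest FDR of the difference; points are libraries and bars the mean ± SD of 3. For each gene the Cre+ pull-downs lie below every Cre+ input. Levels are not on a common scale across both labels, and the genes were picked by this difference.

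Ndufa9 had the clearest difference, at -2.52 ± 0.45 (SE, FDR = 0.0184), with an FDR of at most 0.0778 when any 1 of the 12 libraries was left out. Levels under both labels were normalized separately. In the Cre+ libraries the 3 pull-downs were at 18.6 ± 5.97 and the inputs at 74.7 ± 19.1 normalized counts (mean ± SD, n = 3), while in the Cre- libraries the pull-downs were at 96.6 ± 11 and the inputs at 66.1 ± 11.8, so that it was below input under one label and above it under the other. Ndufv1 had the same pattern, with 18.3, 16.8 and 12.4 in the Cre+ pull-downs and 43.8, 31.7 and 38.8 in the inputs (difference -1.86 ± 0.47 SE, FDR = 0.0689). Atp5d (difference -1.78 ± 0.37 SE, FDR = 0.0358), Atp5b (-1.48 ± 0.33 SE, FDR = 0.0459), Ndufb11 (-2.64 ± 0.63 SE, FDR = 0.0648) and Atp5c1 (-2.16 ± 0.52 SE, FDR = 0.0648) followed. Under Cre- Atp5d had 166, 136 and 189 in the pull-downs against 188, 154 and 139.9 in the inputs, which overlapped. Ndufb11 had 17.6, 19.6 and 20.9 there against 14.1, 17.3 and 16.8, each pull-down just above each input. For Ndufa4 the FDR was just under the limit (0.099998).

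The pull-downs were also set directly against each other, in the fit of all 12 libraries with its shared estimate of spread. In it, 35 of 74 members were lower in the Cre+ than in the Cre- pull-downs (7.12% of all genes) and 0 were higher (10.8%), with a median of -1.33 against 0.14 over all genes and 68 members below 0 (44.4%). In 51 members the 3 Cre+ pull-downs lay below the 3 Cre- pull-downs (15% of all genes). The 35 comprised 16 of complex I, 1 of complex II, 2 of complex III, 8 of complex IV, 7 of complex V and 1 assembly factor, and held all 12 members with a called difference. The sum of the neuron markers was also lower in each Cre+ pull-down than in each Cre- pull-down, as given above from levels normalized separately for each table; its part in this result was not tested. Without Cre- pull-down replicate 2 or 3 the count was 13 (4.13% and 3.59% of all genes), and it was 28 to 39 (5.81% to 12.2%) without any 1 of the others. Between the inputs 0 members and 0 of all 9006 genes were called (edgeR). An unadjusted p under 0.05 was found there for 0 members and for 20 of all genes. The members' median of 0.37 (3 of 74 below 0, against 48.7% of all genes) turned to -0.20, with 59 below 0, without Cre+ input replicate 1. Both comparisons use the same libraries as the enrichments above and are no separate evidence for them.

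Most members encode short proteins, a property the choice by symbol did not use. Their median length was 151 residues against 463 over all genes tested under Cre- with a known length, and 58 of 83 had up to 200. Fold changes went with protein length in both sets of libraries, so the members were set beside all genes of the same length. Under Cre+ the median log2 fold change of all genes rose from -1.03 at up to 100 residues over -0.86, -0.36 and 0.063 to 0.83 above 800 residues. The members' medians in the first 4 classes were -2.25 (15 members), -1.81 (37), -1.64 (12) and -1.03 (10), each below that of all genes. Without input replicate 1 they were -1.47, -1.11, -1.08 and -0.84, against -0.75, -0.62, -0.28 and 0.052 for all genes.

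Under Cre- the medians of all genes were -0.70, -0.46, -0.24 and 0.018 in these classes, and the members' -0.25 (19), -0.019 (39), 0.28 (15) and 0.43 (10), each above that of all genes. Members thus lay below genes of their length under Cre+ and above them under Cre-. Across the members, log length and log2 fold change correlated with r = 0.40 under Cre+ (74 genes) and 0.58 under Cre- (83), and across all genes with 0.52 and 0.38, as a description of genes that share their libraries. Short genes of all kinds were also higher in Cre+ input replicate 1, where genes of up to 100 residues had a median of 0.55 log2 units against the mean of the 3 inputs; the part of length in the members' fold changes was not tested.

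**Figure D4:**
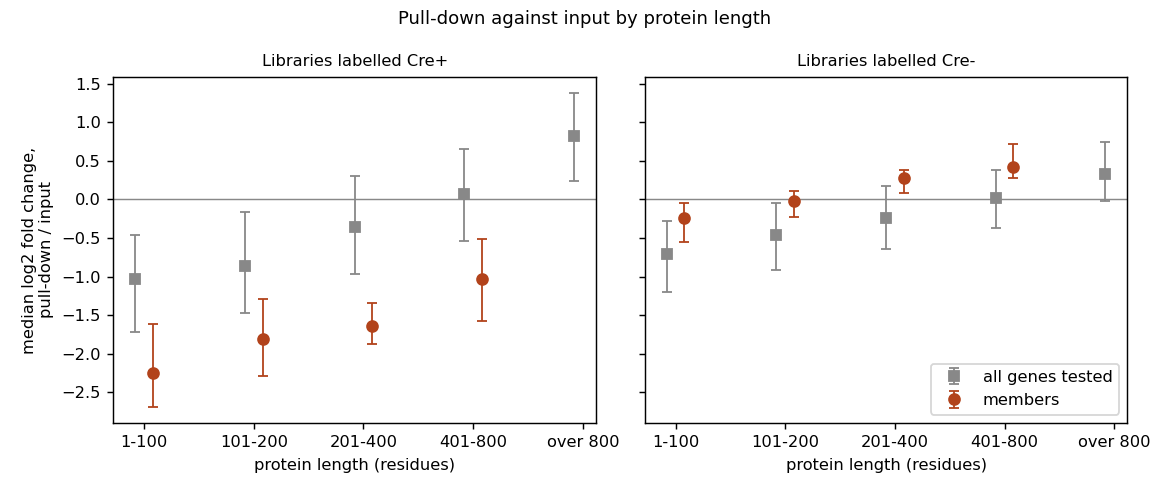
Median log2 ratio of pull-down over input by protein length in residues, for all genes tested (squares) and for members (circles), with bars between the quartiles over genes. Members lie below all genes in each class under Cre+ and above them under Cre-, and no member is longer than 727 residues.

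Ribosomal proteins, which are also short and nuclear-encoded and build large complexes, were set beside the members. The cytosolic ones, which make up the tagged particle itself, had a median of -1.56 under Cre+ (51 genes, 4 called lower) and -0.99 under Cre- (73 genes, 22 called lower), and a difference of -0.60 (0 called). The mitochondrial ribosomal proteins, which like the members are imported into mitochondria, had -1.18 under Cre+ (48 genes, 1 called lower) and -0.19 under Cre- (76 genes, 3 called lower), with a difference of -0.75 (1 called lower). For the members the values were -1.69, 0.013 and -1.67, with 10, 0 and 12 called lower. Between the pull-downs directly, the medians were -1.33 for the members, -0.55 for the mitochondrial and -0.15 for the cytosolic ribosomal proteins. The 3 lists were not tested against each other, and without Cre+ input replicate 1 the Cre+ medians were -1.13 for the members, -0.80 for the mitochondrial and -0.90 for the cytosolic ribosomal proteins.

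Some subunits come as paralogs of which one is typical of heart and muscle. Cox7a1, the muscle form, was at 0 to 0.985 normalized counts in the Cre- libraries, with at most 13 counts in a library, against 43.3, 37.8 and 36.7 in the inputs for the widespread form Cox7a2. Cox7a2 had 4.44, 15.5 and 6.00 in the Cre+ pull-downs against 84.9, 26.2 and 26.0 in the inputs (log2 fold change -2.40 ± 0.76 SE, FDR = 0.109) and 25.1, 35.0 and 36.1 in the Cre- pull-downs (log2 fold change -0.29). For the proton-carrying c subunit, Atp5g3 had 71.4, 52.6 and 50.3 in the Cre- inputs and Atp5g1 20.1, 21.6 and 22.8, and their Cre+ log2 fold changes were -1.52 and -1.29, neither past the test. Cox4i1 and Cox6a1, the widespread forms of their subunits, had Cre+ log2 fold changes of -2.09 and -1.36 with the same FDR to 3 digits (0.101), just above the limit, and Cre- values of -0.12 and -0.17. The paralogs Cox4i2, Cox6a2, Atp5g2 and Ndufa4l2 were not among the listed members and were not analysed here.

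Of 62 further symbols of the pathway (other subunits, assembly factors, regulators and mitochondrial-genome subunits; the last were not analysed here), 24 were tested under Cre+ and 44 under Cre-. Under Cre+ 1 of 24 was lower (2.19% of all genes) and 0 higher, and the median was -0.62. The lower gene was Atpif1, which encodes the inhibitor of ATP synthase, with 23.2, 57.3 and 40.3 normalized counts in the pull-downs and 241, 107 and 102 in the inputs (log2 fold change -1.90 ± 0.49 SE, FDR = 0.0761). Under Cre- 2 of 44 were higher and 3 lower, where 6.01% and 5.83% of all genes were, so these counts are near the background. Ppargc1a, a coactivator that drives the making of mitochondria, had 128, 241 and 249 in the pull-downs and 35.5, 47.2 and 62.3 in the inputs, with a log2 fold change of 2.09 ± 0.28 (SE, FDR = 0.000561), and Atpaf1, an assembly factor of the F1 head, had 18.6, 17.7 and 23.5 against 5.49, 8.42 and 7.20 (log2 fold change 1.5 ± 0.31 SE, FDR = 0.00653).

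The 3 lower genes were Coa5 and Surf1, which act in the assembly of complex IV, and Uqcc2, which acts in that of complex III, with log2 fold changes of -1.37, -1.18 and -1.26 (FDR = 0.00273, 0.0205 and 0.0862). Ppargc1a under Cre+ had 70.3, 90.0 and 101.1 against 25.4, 43.6 and 45.7, with no overlap (log2 fold change 1.19 ± 0.41 SE, FDR = 0.132), so it lay above its inputs in both sets of libraries while most subunits of the complexes lay below theirs under Cre+. Cyc1, the cytochrome c1 subunit of complex III whose symbol is outside the rule for members, had 71.7, 35.8 and 89.0 against 189, 92.8 and 103 under Cre+ (log2 fold change -0.97 ± 0.45 SE, FDR = 0.229). Of the 24, 0 were called for the difference between the enrichments (edgeR, 2.3% of all genes higher and 2% lower). An unadjusted p under 0.05 was found for 3 of them and for 1754 of all 9006 genes. The difference was below 0 for 20 of the 24 (45.3% of all genes), with a median of -0.77. Between the pull-downs directly, 4 were lower (7.12% of all genes) and 0 higher.

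Of the members, 9 were outside the Cre+ table, which has no gene with fewer than 5 counts in any of its libraries: Atp5e, Atp5l, Cox7a1, Ndufa1, Ndufaf1, Ndufaf6, Ndufb4, Ndufs3 and Uqcr11. Under Cre- they ranged from -0.56 (Atp5e, with 8.42, 8.27 and 7.82 in the pull-downs and 13.2, 14.4 and 8.49 in the inputs) to 0.33 (Ndufs3), and none passed; the 74 are therefore not all members. Near-identical pseudogene copies (at least 95% identity over at least 50% of the transcript) exist for 10 members, among them Atp5c1 and Ndufb11. Exons of 29 overlap another annotated gene entry, by more than 20% in Atp5o (in part a second entry of its own symbol), Ndufa13, Ndufaf2 and Ndufb6. Since the counting kept unique reads and is not stated to use strand, values of these genes are uncertain.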

How the data were processed

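Counts per gene were deposited for 12 libraries, 6 in a table for each label. Per the study's methods, the authors aligned reads to mm10 with STAR, counted uniquely mapped fragments per RefSeq gene with HTSeq and tested with edgeR; the labels also name CASAVA 1.8.2. Strand handling is not given in the sources used here. The authors' mean FPKM per gene served as a filter and to compare levels between genes. The Cre+ table (9112 genes) holds only genes with at least 5 counts in each library, and 14177 were listed for Cre-. Columns of the Cre+ table name the group and a number that the labels do not tie to single samples. Each input came from the lysate of a pull-down, but which one is not known from the labels, so no pairing was used. Columns with the authors' fold changes and p-values and 18 further per-sample columns were not used.

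The test was edgeR 4.0.16 in R 4.3.3 on genes past an FPKM of 1 (TMM scaling, robust quasi-likelihood fit, Benjamini-Hochberg FDR over all genes tested), for each label alone (8947 and 11526 genes) and, for the difference, the pull-downs and the inputs, with all 12 libraries (9006 genes). A gene was called at an FDR below 0.1, the limit in the study's methods, and at least 2-fold, which the study applied to pull-down against input and which was used here in the other comparisons too. Standard errors were derived from the fold change and its F statistic. Normalized counts are per 1000000 after TMM scaling within a table, so levels are not on a common scale across both tables. DESeq2 1.42.0, other scalings, filters, limits and fits were tried, and each library was left out in turn. On simulated counts with 200 genes changed at least 4-fold, 62% were recovered for Cre+, 92% for Cre- and 50% for the difference. Unchanged genes called were 12, 15 and 14. Smaller changes, down to the 2-fold limit, were not simulated, so these shares do not hold for them. Libraries held 8886308 to 18633365 counts, and counting error is larger for members with few counts, down to 5 in a Cre+ library. Each sample pooled mice, and the labels do not say when or in how many cultures they were prepared, so p-values measure only the spread between these samples.

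Figures were drawn with matplotlib 3.10.9. Members and lists were chosen with earlier results of these data known. Named in full were, per label and complex, the 2 members with the smallest FDR and the one with the highest FPKM, the paralog sets, the 5 members with the smallest FDR of the difference, and called genes of the pathway list; other members were named after their values were seen. The values of some genes are not reported here by name.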

Additional observations from a re-analysis of the deposited data

Results flagged for a closer look

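For 11 members described here the pull-down enrichment differed between the libraries labelled Cre+ and Cre- by the test of the difference itself (edgeR, FDR below 0.1 and 2-fold; 2% of all genes were called lower). All were lower under Cre+, in log2 units. In complex I the differences were -2.52 for Ndufa9, -2.64 for Ndufb11, -1.86 for Ndufv1 and -1.51 for Ndufa10. Sdhd of complex II had -2.17. In complex IV they were -2.77 for Cox7b, -2.72 for Cox5b and -2.13 for Ndufa4, and in complex V -1.78 for Atp5d, -1.48 for Atp5b and -2.16 for Atp5c1. Without Cre+ input replicate 1, 3 members were called lower, where 0.755% of all genes were.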

How the results depend on the processing

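The members' medians kept their sign under every alternative for Cre+ (-1.93 to -1.13 with single libraries left out), for the difference (-1.91 to -1.13) and between pull-downs (-1.42 to -1.24), but not for Cre- (-0.096 to 0.097 with single libraries left out, -0.23 by library size) or between inputs (-0.20 to 0.61 with single libraries left out). For Cre+ and the difference, library size gave -2.10 and -1.88, and between pull-downs -1.54. Counts of calls moved far more. For Cre+, 10 members were lower (2.19% of all genes). DESeq2 gave 39 (6.7%), library size 35 (7.81%), the exact test 35 (5.42%) and all 12 libraries in 1 fit 51 (10.6%). An FDR below 0.05 gave 2 (0.291%), and leaving out single libraries gave 0 to 26 (0% to 6.04%). For the difference, 12 members were lower (2% of all genes). DESeq2 gave 30 (4.91%), library size 19 (3.05%) and an FDR below 0.05 gave 3 (0.677%). Leaving out single libraries gave 1 to 33 (0.333% to 7.74%). Between pull-downs, 35 (7.12% of all genes) became 13 to 39 (3.59% to 12.2%) with a library left out. Between inputs the count stayed 0, for the members as for all genes. For Cre-, library size called 2 members lower (10.7% of all genes). The absence of a fold limit called 6 higher (13%) and 1 lower (11.1%). Leaving out single libraries called 0 to 1 in either direction (4.99% to 7.09% of all genes higher, 4.55% to 9.2% lower). The cause of these changes was not tested, except that leaving out a library lowers the number of samples. Some alternatives were added after seeing the data. Without robust estimation, 11 members were lower for Cre+ (2.49% of all genes) and 11 for the difference (1.99%). Library size gave 43 between pull-downs (11%). Scaling by library size moved the median of all genes under Cre+ from 0.076 to -0.36, and the members' median relative to it only from -1.77 to -1.74.

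Under Cre- the sign turned for Uqcrh by library size (-0.0082), for Cox6a1 (0.012, lowest -0.28) and Atp5g1 (0.0087, lowest -0.097) without pull-down replicate 1, and for Cox7a1, which has at most 13 counts, without pull-down replicate 2 (0.21) or input replicate 3 (0.84, lowest -0.83). The other values, each of a member named in full under an alternative, were compared with the main result by direction and FDR limit, without the fold limit. Of these values, 675 kept their direction and their side of the FDR limit, 47 came under that limit and 73 rose above it. With a replicate block under Cre-, 0 members were called (6.11% of all genes were higher and 6.87% lower), and their median was 1.62e-05. Deviations from the group means correlated with r of 0.072, 0.031 and 0.13 between same-numbered libraries. Each was above the -0.12 to 0.027 of the other combinations, but not all were over 0.1. The labels do not say that a number marks a shared lysate, so the numbers were not taken as pairs. A block by the numbers in the column names, which the labels tie to no single Cre+ sample, was added after seeing the data. It called 5 members lower for Cre+ (0.548% of all genes), with 4 of the 10 among them, and 4 for the difference (0.7%), all among the 12; same-numbered Cre+ libraries correlated with r of -0.010 to 0.011.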
